A study of Mus musculus with 11 samples.

Results

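The genes described here encode the machinery by which a secreted protein enters the endoplasmic reticulum (ER), is folded there, and is either passed on to the Golgi or degraded. They were the 56 listed members of 11 sub-functions, chosen by gene symbol; all 56 were among the 10885 genes of the deposited expression table. The table holds 11 RNA-seq libraries made from dissociated cells of whole lymph node (LN) and spleen of 6 mice. KI mice (mice 5 and 6) carried a BCL2 knock-in at the immunoglobulin kappa locus (Igk-BCL2), and Tg mice (mice 3 and 4) carried a BCL2 transgene under the heavy chain 3' regulatory region (3'RR-BCL2). Wild-type mice (Wt, mice 1 and 2) carried neither. All mice, Wt included, had been immunised intraperitoneally with sheep red blood cells over 3 months, and tissue was taken 1 month after the third immunisation; the labels give neither strain nor age. Each group of tissue and genotype held 2 libraries, except the Tg spleen with 1 (mouse 4), and spleen and LN with the same number came from the same mouse. In the sample labels the animal numbers of Wt and Tg mice lie close together, and those of KI mice lie far from them. What this reflects is not given, and it cannot be told apart from the KI genotype.

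A nascent secreted chain is recognised by the signal recognition particle (SRP), threaded through the Sec61 translocon, freed of its signal peptide, glycosylated, and folded by chaperones and disulfide isomerases. Chains that fail to fold are drawn back to the cytosol and destroyed by ER-associated degradation (ERAD). The sensors Ire1 (gene Ern1), Atf6 and Perk adjust this capacity in the unfolded protein response, Ire1 by splicing the mRNA of the transcription factor Xbp1. Plasma cells, which secrete antibody in bulk, are known for a large ER and for their need of Xbp1.

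Values are the authors' normalised signal, a gene's read count divided by 1 factor per library, not corrected for gene length, so that a gene is compared between libraries and not with other genes. Reads recovered from that signal, counted over the 10885 genes of the table only, were 11128568 to 21067988 per LN library and 18994455 to 24110325 per spleen library. The mouse gene Bcl2 had 1246 and 1664 in KI LN, 2065 and 3171 in Tg LN and 2338 and 2716 in Wt LN; in spleen it had 1249 and 1299 in KI, 2109 in Tg and 2611 and 2427 in Wt. It was thus lower in both KI tissues than in Wt (LN -0.81 ± 0.20, limma adjusted p = 0.0152; spleen -0.98 ± 0.20, adjusted p = 0.0110; log2 ± SE), and whether the inserted BCL2 is read by this gene was not given in the sources used here. In LN, 10 of 10 macrophage markers were lower and 10 of 10 pan T cell markers were higher than in spleen of Wt mice. Markers of lymphoid stroma and of exocrine pancreas were not in the table (0 of 6 and 0 of 5).

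Differences below are log2(value + 1) differences with the standard error of a limma fit over all 11 libraries, and a gene was called at an adjusted p under 0.05 over all 10885 genes. The mice of a group are its replicates, 2 at most, and the Tg spleen has no replicate of its own.

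Known stress-response elements stand in the promoters of several of these genes and are shown first, since the genes that carry them did not all behave alike below. Promoters of RefSeq (build GRCm38.p6; 250 bases before to 50 after the transcription start) were matched by symbol for 45 of the 56 genes. The ER stress response element ERSE (CCAAT and CCACG with any 9 bases between them, searched on both strands), which Atf6 and Xbp1 are known to bind, was found in 9 of the 45 (20%): Calr, Canx, Creld2, Derl3, Dnajc3, Hsp90b1, Hspa5, Pdia6 and Syvn1. Of all 27025 genes with such a promoter, 37 held it (0.137%). The genes here were listed for their ER function, stress sensors included, so these shares describe the list and test nothing. The 4 promoters below are those of the ER chaperone gene Hspa5 and of the 3 other genes with the element and the smallest p in KI against Wt LN, Derl3 and Syvn1 of ERAD and the folding factor gene Creld2, each on the plus strand, with the fixed letters of the ERSE in capitals.
Hspa5, chr2:34771840-34772139: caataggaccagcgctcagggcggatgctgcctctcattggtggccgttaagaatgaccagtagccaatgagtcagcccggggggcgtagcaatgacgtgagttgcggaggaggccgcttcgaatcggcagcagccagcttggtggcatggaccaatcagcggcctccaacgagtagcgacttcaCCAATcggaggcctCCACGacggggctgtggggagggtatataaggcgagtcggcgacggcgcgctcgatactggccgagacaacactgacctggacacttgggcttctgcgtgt
Derl3, chr10:75893148-75893447: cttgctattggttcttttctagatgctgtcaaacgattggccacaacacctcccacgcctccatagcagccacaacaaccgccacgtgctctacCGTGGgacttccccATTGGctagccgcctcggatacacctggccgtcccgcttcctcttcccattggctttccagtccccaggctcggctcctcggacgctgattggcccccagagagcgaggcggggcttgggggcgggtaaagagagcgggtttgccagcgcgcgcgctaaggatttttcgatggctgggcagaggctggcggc
Creld2, chr15:88819396-88819695: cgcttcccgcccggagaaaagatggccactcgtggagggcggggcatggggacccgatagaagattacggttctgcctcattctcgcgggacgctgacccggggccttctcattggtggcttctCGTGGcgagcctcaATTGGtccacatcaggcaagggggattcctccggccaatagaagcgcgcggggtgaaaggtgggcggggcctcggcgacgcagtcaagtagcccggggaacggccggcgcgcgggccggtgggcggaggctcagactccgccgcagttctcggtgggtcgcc
Syvn1, chr19:6046326-6046625: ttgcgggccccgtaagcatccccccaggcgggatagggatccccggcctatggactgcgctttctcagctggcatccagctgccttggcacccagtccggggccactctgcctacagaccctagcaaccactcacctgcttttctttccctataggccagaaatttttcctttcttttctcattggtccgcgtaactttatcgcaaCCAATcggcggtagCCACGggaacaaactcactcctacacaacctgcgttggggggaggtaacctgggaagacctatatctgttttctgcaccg
The element reads forward in Hspa5 and Syvn1, with its first printed base 65 and 44 bases before the start, and in reverse in Derl3 and Creld2, 156 and 126 bases before it. The related ERSE-II (ATTGG and CCACG with 1 base between them) was found in Dnajb11 and Herpud1, 4.44% of the genes matched here against 0.0444% of all. The element TGACGTGG, bound by Xbp1, was found in Sec24d and Txndc5 (4.44% against 0.714% of all), TGACGTGT in Srpr (2.22% against 0.529%), and TGATGNAA, an element of amino acid and integrated stress responses, in 3 genes (6.67% against 4.51%). A match of letters is a description and not a measured binding site. Of the 28 genes with a promoter that were higher in KI than in Wt LN, 7 held an ERSE, as did 2 of the other 17.

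In LN, most of the ER machinery was higher in KI than in Wt mice, with the largest median differences in ERAD and at the sensors. Of the 56 genes, 37 rose and 1, Sec11a, fell, where 13.8% of all genes rose and 12.2% fell. The median difference was 0.57 over these genes and -0.02 over all genes, and 18 genes were more than 2-fold higher. By sub-function the median was 0.24 for the lectin chaperones, 0.28 for the translocon, 0.30 for oligosaccharyltransferase, 0.41 for SRP with its receptor and for the translocon-associated TRAP complex, 0.60 for ER-Golgi transport, 0.64 for signal peptidase, 1.0 for the HSP70 and HSP90 chaperones, 1.05 for disulfide isomerases, 1.22 for ERAD and 2.24 for the sensors and Xbp1. The KI and Wt libraries did not overlap for 49 genes that were higher (32.0% of all genes) and 2 that were lower, Sec11a and Dnajb9 (34.8%). Leaving out 1 library at a time gave 27 to 39 genes higher, the lowest count without the LN of KI mouse 6. With values rescaled without immunoglobulin and haemoglobin genes, the median over all genes shifted by 0.13 and 46 of the 56 genes were higher and 1 lower; the calls over all genes were then 2066 higher and 879 lower, against 1502 and 1331.

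**Figure D1:**
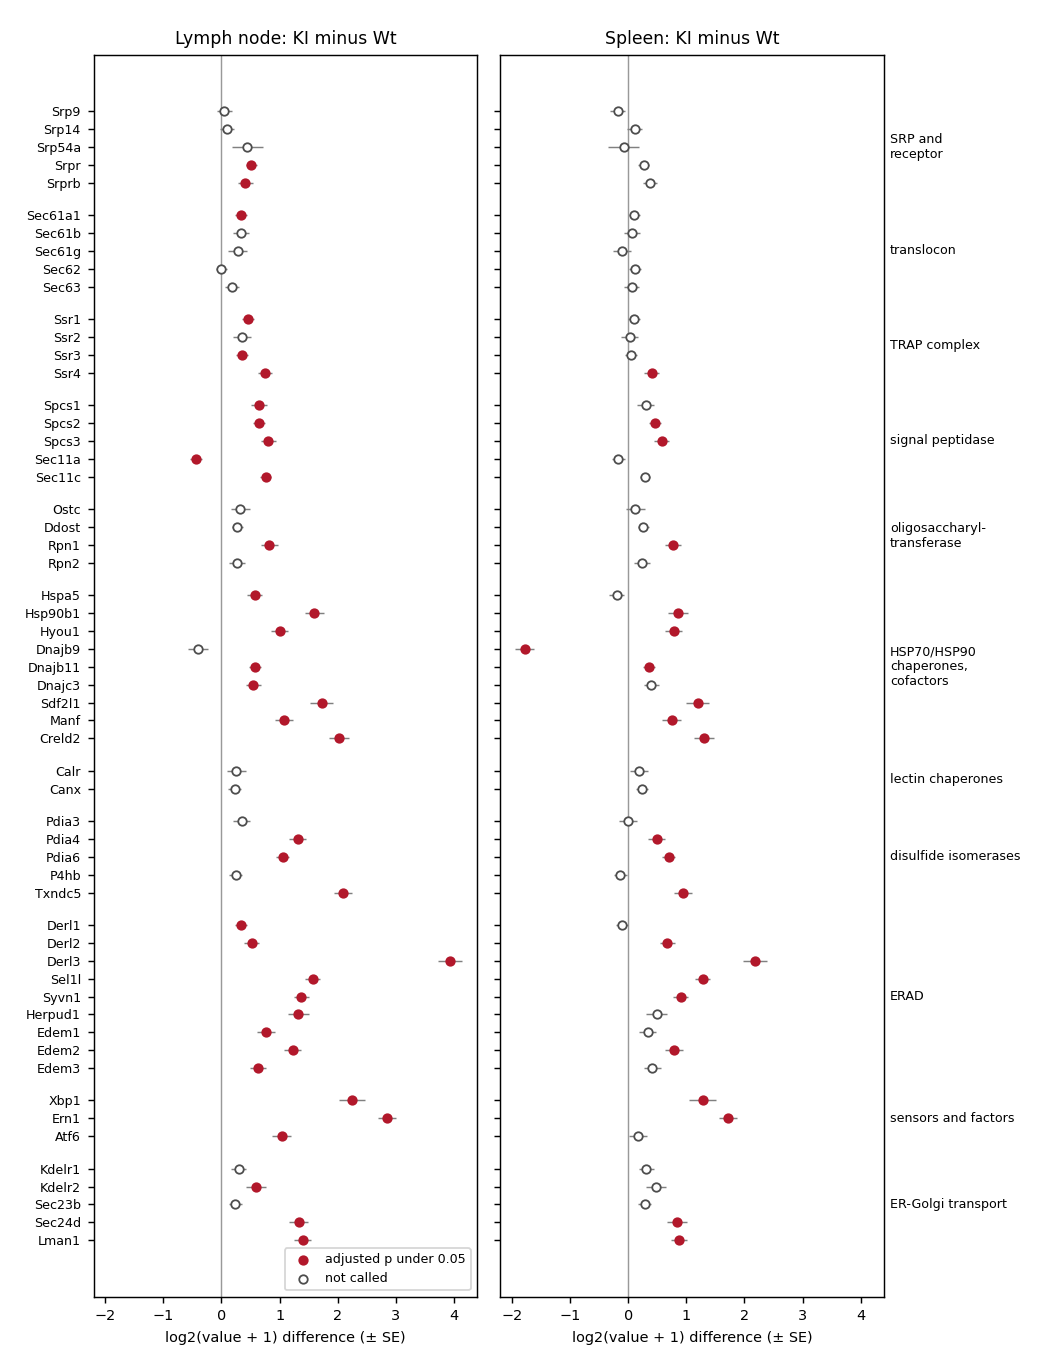
The difference between KI and Wt for each of the 56 genes, in log2(value + 1) with its standard error, with LN and spleen in separate panels and genes grouped by sub-function; filled red points passed the test at an adjusted p under 0.05. In LN 37 points lie right of 0 and are red, in spleen 22, and Dnajb9 is the one red point left of 0 in spleen.

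Markers of antibody-secreting and germinal centre cells were also higher in KI than in Wt LN. Of 13 plasma cell markers 11 were higher in KI LN and 0 lower, Sdc1 (syndecan-1, CD138) by 4.17 ± 0.18 and Jchain by 5.24 ± 0.26. Fkbp11 stands in this list and in the wider pathway list below. The summed signal of the 13 markers was 149424 and 153184 in KI LN, 22357 and 18507 in Tg LN and 13623 and 18056 in Wt LN. Most of the KI sum was Jchain, with 122650 and 128795 in KI LN, 6602 and 4465 in Tg LN and 2972 and 3700 in Wt LN. The plasma cell regulators moved unequally: Prdm1 rose (2.31 ± 0.32) and Irf4 did not pass the test (-0.25 ± 0.31). Of 9 germinal centre B cell markers 8 were higher in KI than in Wt LN. Their sum was 18248 to 23478 in KI, 7098 and 5966 in Tg and 3772 to 3907 in Wt LN. In Tg against Wt LN their median difference was 1.11, with 0 called, where that of the ER genes was 0.01. In KI LN 10 of 10 pan T cell markers and 6 of 10 macrophage markers were lower than in Wt LN. Of 10 pan B cell markers 5 were higher and 1 lower, with a sum of 87036 to 108568 in KI and 67274 to 76095 in Wt LN. Immunoglobulin genes took 9.46% and 6.77% of the signal of the KI LN libraries and 0.666% and 0.754% in Wt LN. The part of these shifts in the differences of the ER genes was not tested; in whole tissue, a change in the number of cells of a type and a change in RNA per cell cannot be told apart.

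**Figure D2:**
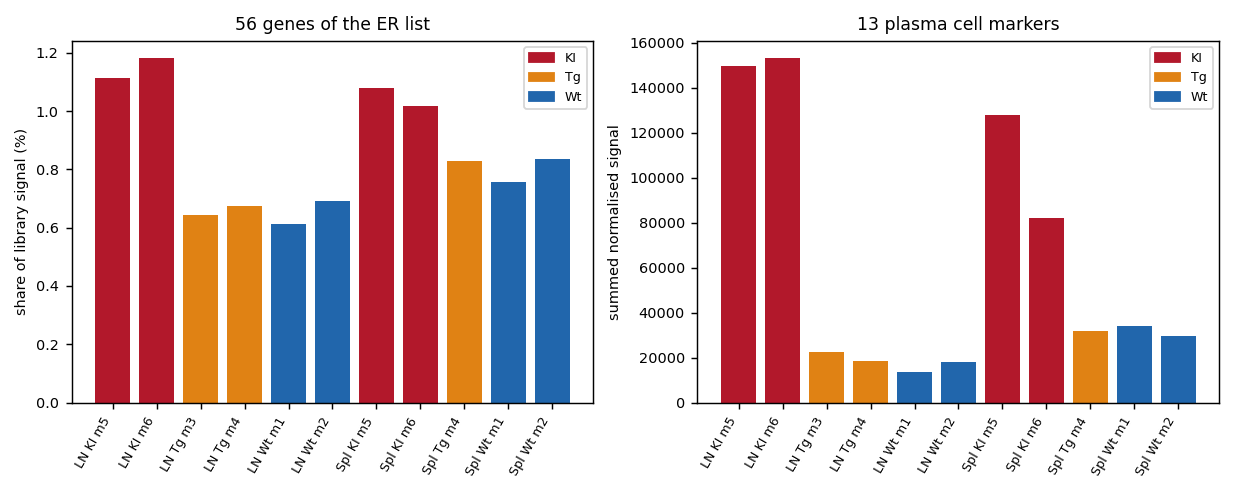
For each of the 11 libraries, the share of the library's signal held by the 56 ER genes in percent, and the summed normalised signal of 13 plasma cell markers. The ER genes hold 1.11% and 1.18% in the KI LN libraries and 0.612% to 0.692% in the Tg and Wt LN libraries. KI libraries are highest on both measures in each tissue, and most of the marker sum in each KI library is Jchain.

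At entry into the ER 3 of 10 genes were called. Of the 5 genes of SRP and its receptor, both receptor subunits rose: Srpr, the subunit that docks the particle, had 3045 and 2849 in KI LN, 1882 and 2043 in Tg LN and 2014 and 2122 in Wt LN (0.51 ± 0.10, limma adjusted p = 0.00346), and Srprb rose by 0.41 ± 0.13 (adjusted p = 0.0347). The particle's own subunits did not pass the test, Srp9 at 0.05 ± 0.13 and Srp14 at 0.10 ± 0.12; Srp54a, at 79 to 147 the lowest of the 56 genes, was also not called. Of the 5 translocon genes only Sec61a1, the pore, was called (0.34 ± 0.10, adjusted p = 0.0296), with 3075 and 2939 in KI LN and 2241 and 2516 in Wt LN. Sec62, an auxiliary of post-translational entry, had 2009 and 1885 in KI LN and 2030 and 1871 in Wt LN, which overlap (-0.00 ± 0.10), and Sec63 was at 0.18 ± 0.13. The receptor and pore calls were small: without the LN of KI mouse 5, KI mouse 6 or Wt mouse 1, neither Srprb (0.37 to 0.45) nor Sec61a1 (0.26 to 0.42) was called, and Srprb also lost its call without the LN of Wt mouse 2 or either KI spleen library.

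In the TRAP complex, which helps chains through the pore, 3 of 4 genes rose. Ssr4 had 2092 and 2199 in KI LN, 1427 and 1276 in Tg LN and 1305 and 1250 in Wt LN, a difference of 0.75 ± 0.12 (limma adjusted p = 0.00171). Ssr1 rose by 0.45 and Ssr3 by 0.36, and Ssr2 (0.35) was not called. Ssr1 was not called without the LN of KI mouse 6 or Wt mouse 1 (0.35 to 0.55), nor Ssr3 without any 1 of the 4 KI and Wt LN libraries (0.29 to 0.42).

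Signal peptidase, which removes the signal peptide, showed opposite changes of its alternative catalytic subunits. Sec11c had 2556 and 2753 in KI LN, 1820 and 1893 in Tg LN and 1550 and 1583 in Wt LN (0.76 ± 0.09, limma adjusted p = 0.000306). Sec11a had 1091 and 1202 in KI LN, 1410 and 1513 in Tg LN and 1487 and 1633 in Wt LN (-0.44 ± 0.10, adjusted p = 0.00992). Both subunits' KI libraries lie apart from all 4 other LN libraries, on opposite sides. The ratio of Sec11c to Sec11a signal was 2.29 to 2.34 in KI LN, 0.969 to 1.04 in Wt LN and at most 1.29 in Tg LN. The accessory subunits moved with Sec11c: Spcs3 rose by 0.81 ± 0.12 (adjusted p = 0.00108), Spcs2 by 0.64 ± 0.11 (adjusted p = 0.00159), and Spcs1 by 0.64 ± 0.14 (adjusted p = 0.00825). Sec11a was not called without the LN of KI mouse 5 or Wt mouse 2 (-0.51 to -0.37), nor Spcs1 without that of KI mouse 6 or Wt mouse 2 (0.54 to 0.75).

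Of 4 oligosaccharyltransferase genes, which attach the N-glycan, Rpn1 alone was called: it had 2947 and 2840 in KI LN, 1435 and 1699 in Tg LN and 1572 and 1697 in Wt LN (0.82 ± 0.14, limma adjusted p = 0.00215). Rpn2, Ddost and Ostc were all between 0.27 and 0.33 and did not pass the test.

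The chaperones that hold the unfolded chain rose as a group, 8 of 9 genes, but unequally. Creld2, a secreted folding factor, had 3078 and 2895 in KI LN, 617 and 673 in Tg LN and 664 and 812 in Wt LN (2.02 ± 0.17, limma adjusted p = 4.76e-05). Hsp90b1, the HSP90 of the ER (GRP94), had 17298 and 18552 in KI LN, 4837 and 5716 in Tg LN and 5328 and 6593 in Wt LN (1.60 ± 0.17, adjusted p = 0.000125). Sdf2l1, which works with the HSP70 chaperone BiP, had 1860 and 2064 in KI LN and 555 and 632 in Wt LN (1.72 ± 0.20, adjusted p = 0.000342). BiP itself, encoded by Hspa5, moved less: it had 19069 and 21483 in KI LN, 11924 and 12834 in Tg LN and 12367 and 14947 in Wt LN (0.57 ± 0.13, adjusted p = 0.00802). Manf (1.07), the nucleotide exchange factor Hyou1 (1.0), and the BiP cochaperones Dnajb11 (0.57) and Dnajc3 (0.55) also rose. Dnajb9 (ERdj4), a cochaperone that holds BiP on the sensor Ire1, had 2007 and 2066 in KI LN, 3136 and 3340 in Tg LN and 2196 and 3294 in Wt LN (-0.40 ± 0.17, adjusted p = 0.110). Its KI values lie below both Wt values by a margin smaller than the gap between the Wt libraries. Without the LN of KI mouse 6 neither Hspa5 (0.44 to 0.71) nor Dnajc3 (0.50 to 0.60) was called, nor Hspa5 without Wt mouse 1 and Dnajc3 without Wt mouse 2.

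The lectin chaperones, which hold glycoproteins in the calnexin cycle, were 0 of 2 called: Calr had 11978 and 11245 in KI LN and 8335 and 11305 in Wt LN, which overlap (0.26 ± 0.16), and Canx was at 0.23 ± 0.10. Their oxidoreductase partner Pdia3 (0.35 ± 0.15) and the classical disulfide isomerase P4hb (0.24 ± 0.11) were likewise not called. The other 3 disulfide isomerases rose. Txndc5 (ERp46) had 8609 and 8289 in KI LN, 2678 and 2090 in Tg LN and 1874 and 2089 in Wt LN (2.09 ± 0.15, limma adjusted p = 1.66e-05), Pdia6 rose by 1.05 ± 0.11 (adjusted p = 0.000154), and Pdia4 had 5093 and 5468 in KI LN and 2117 and 2142 in Wt LN (1.31 ± 0.15, adjusted p = 0.000209). Within the family, 3 genes thus passed 2-fold in KI LN, while P4hb and Pdia3 were under the threshold of the test.

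All 9 ERAD genes rose in KI LN. Derl3, a derlin of the retrotranslocation channel, changed most of the 56 genes, with 2737 and 2651 in KI LN, 222 and 214 in Tg LN and 139 and 221 in Wt LN (3.94 ± 0.20, limma adjusted p = 3.47e-06). Its paralogues Derl2 (0.52 ± 0.13, adjusted p = 0.0127) and Derl1 (0.33 ± 0.10, adjusted p = 0.0324) rose little, and Derl1 had 2512 and 2794 in KI LN and 2042 and 2161 in Wt LN. The ratio of Derl3 to Derl1 signal was 0.949 to 1.09 in KI LN and 0.0679 to 0.102 in Wt LN. The ubiquitin ligase Syvn1 (HRD1) had 7594 and 6192 in KI LN, 2553 and 3145 in Tg LN and 2591 and 2692 in Wt LN (1.38 ± 0.13, adjusted p = 6.92e-05), and its partner Sel1l had 4577 and 5115 in KI LN, 1637 and 1872 in Tg LN and 1450 and 1824 in Wt LN (1.57 ± 0.13, adjusted p = 3.81e-05). Both subunits of the ligase complex were thus at least 2-fold above Wt in each KI library. Of the mannose-trimming Edem proteins, Edem2 rose by 1.22 ± 0.15 (adjusted p = 0.000324), Edem1 by 0.76 ± 0.15 (adjusted p = 0.00465) and Edem3 by 0.62 ± 0.14 (adjusted p = 0.00827). Herpud1, a scaffold of the ligase, rose by 1.32. Derl1 lost its call without any 1 of the 4 KI and Wt LN libraries (0.26 to 0.41), Derl2 without KI mouse 5, Wt mouse 1 or Wt mouse 2 (0.43 to 0.61), and Edem3 without KI mouse 6 or Wt mouse 1 (0.50 to 0.74).

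The stress sensors and Xbp1 all rose in KI LN, by unequal amounts. Ern1 had 1913 and 2257 in KI LN, 262 and 352 in Tg LN and 290 and 286 in Wt LN (2.85 ± 0.15, limma adjusted p = 3.47e-06). Xbp1 had 10174 and 8399 in KI LN, 2393 and 2155 in Tg LN and 1730 and 2197 in Wt LN (2.24 ± 0.23, adjusted p = 0.000278); spliced and unspliced forms are not separated in these values. Atf6 had 1757 and 1743 in KI LN, 890 and 868 in Tg LN and 713 and 1026 in Wt LN (1.03 ± 0.16, adjusted p = 0.00100). In each of the 3 genes both KI libraries lie above all 4 Tg and Wt libraries. The ratio of Ern1 to Atf6 signal was 1.09 to 1.29 in KI LN and 0.278 to 0.407 in Wt LN.

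**Figure D3:**
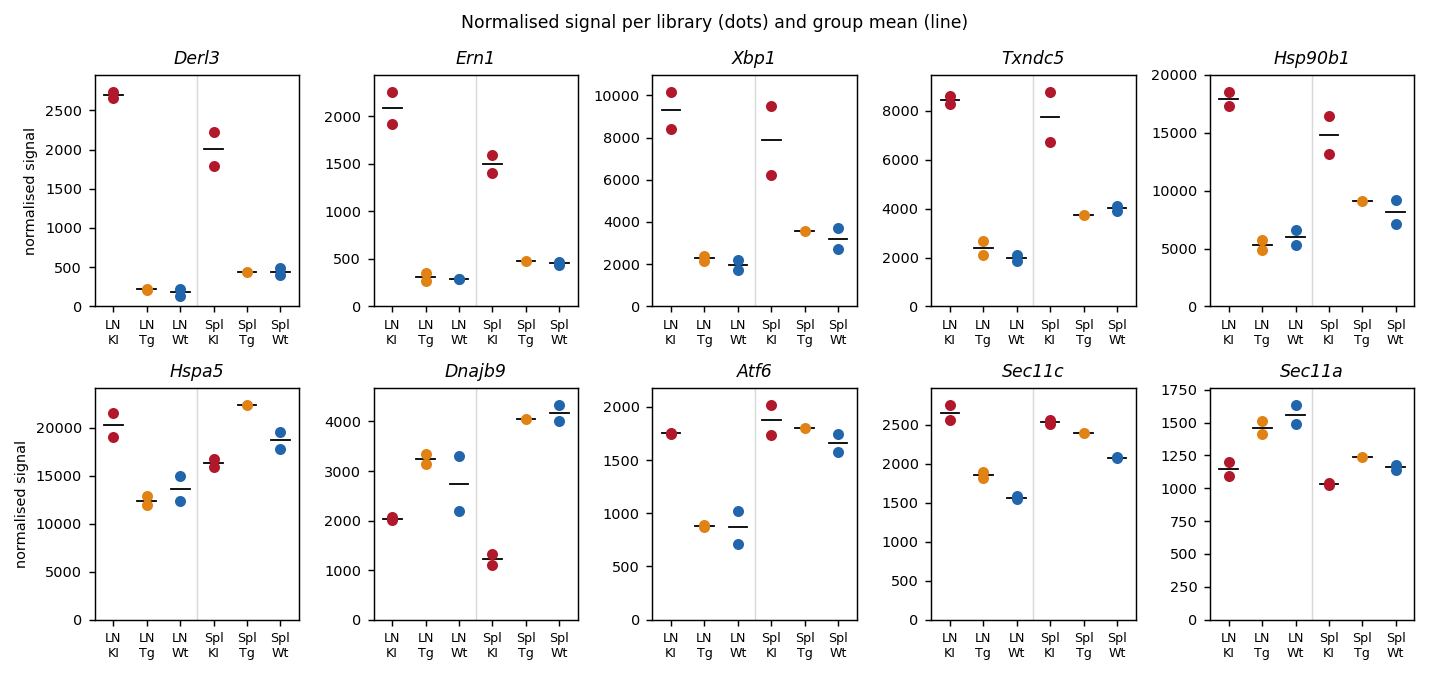
Normalised signal in each of the 11 libraries for 10 genes of the ER machinery, by tissue and genotype; dots are libraries and lines are group means. Derl3, Ern1, Xbp1, Txndc5 and Hsp90b1 are higher in both KI tissues, Sec11a and Sec11c separate in LN, and Dnajb9 and Hspa5 are lowest in the KI spleen among the spleen libraries.

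Of the 5 genes of ER-Golgi transport, 3 rose in KI LN. Lman1 (ERGIC-53), a cargo receptor for glycoproteins, had 1644 and 1632 in KI LN, 587 and 649 in Tg LN and 589 and 656 in Wt LN (1.40 ± 0.14, limma adjusted p = 0.000114), and the COPII coat gene Sec24d had 756 and 1015 in KI LN, 351 and 360 in Tg LN and 318 and 382 in Wt LN (1.33 ± 0.17, adjusted p = 0.000342). The coat partner Sec23b was at 0.24 ± 0.11 and not called. The KDEL receptors, which return escaped chaperones to the ER, moved less: Kdelr2 rose by 0.60 ± 0.17 (adjusted p = 0.0250) and Kdelr1 was at 0.30 ± 0.13 (adjusted p = 0.118). Kdelr2 was not called without any 1 of the 4 KI and Wt LN libraries (0.51 to 0.70), nor after quantile normalisation (0.48).

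In spleen the same comparison gave fewer and smaller differences. Of the 56 genes 22 rose in KI spleen and 1, Dnajb9, fell, where 7.63% of all genes rose and 9.21% fell; the median difference was 0.32 over these genes and 0.01 over all genes, and 6 genes were more than 2-fold higher. All 22 had also risen in KI LN; 516 of all genes (4.74%) rose in both tissues. A further 15 genes that rose in LN were not called in spleen, among them Hspa5, Atf6, Sec11c, Herpud1, Edem1 and Edem3, and 17 genes were called in neither. The count was 12 without the spleen of KI mouse 5 and 9 without that of Wt mouse 1, and 28 without the LN of Tg mouse 3 or 4. Rescaled without immunoglobulin and haemoglobin genes, 33 rose and 1 fell, the median over all genes shifted by 0.09, and 1427 of all genes were higher and 816 lower, against 830 and 1003. KI and Wt spleen libraries did not overlap for 40 genes that were higher (34.4% of all genes) and for 6 that were lower (31.9%), Srp9, Sec11a, Hspa5, Dnajb9, P4hb and Derl1.

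Plasma cell markers moved with the ER genes in part: 7 of 13 were higher and 2 (Irf4 and Cd28) lower in KI spleen. Their summed signal was 127823 and 82047 in KI, 31792 in Tg and 34097 and 29749 in Wt spleen. Most of the KI sum was Jchain, with 105380 and 61413 in KI, 13506 in Tg and 11929 and 10992 in Wt spleen. The sum therefore mainly follows this gene and not the 13 markers alike. Germinal centre markers were higher for 4 of 9, pan B cell markers for 3 of 10 (sum 136693 to 150706 in KI and 104656 to 112878 in Wt spleen), pan T cell markers lower for 8 of 10, and macrophage markers called for 0 of 10. Summed erythroid markers were 2910 to 25772 in KI and 659 to 999 in Wt spleen, and neutrophil markers 1418 to 5207 in KI and 5113 to 44595 in Wt. The part of these shifts in the spleen differences was not tested.

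No gene of SRP, its receptor or the translocon passed the test in spleen; those with the largest p were Srp54a (-0.08), Srp14 (0.11), Sec61b (0.06) and Sec63 (0.06). Of the TRAP genes only Ssr4 was called, at 0.40 ± 0.12 (limma adjusted p = 0.0484). Of signal peptidase, Spcs3 rose by 0.57 ± 0.12 (adjusted p = 0.0119) and Spcs2 by 0.46 ± 0.11 (adjusted p = 0.0157). Sec11c had 2558 and 2513 in KI spleen, 2400 in Tg and 2069 and 2085 in Wt spleen (0.29 ± 0.09, adjusted p = 0.0560), and Sec11a had 1027 and 1037 in KI, 1241 in Tg and 1139 and 1179 in Wt spleen (-0.17 ± 0.10, adjusted p = 0.292). Both catalytic subunits lay on the same sides of Wt as in LN, without passing the test, and their ratio was 2.42 to 2.49 in KI and 1.77 to 1.82 in Wt spleen. Rpn1 of the oligosaccharyltransferase had 3071 and 2777 in KI and 1478 and 1979 in Wt spleen (0.77 ± 0.14, adjusted p = 0.00619). None of these 4 calls held without the spleen of KI mouse 5 or without that of Wt mouse 1 (Ssr4 0.24 to 0.56, Spcs3 0.41 to 0.74, Spcs2 0.33 to 0.58, Rpn1 0.56 to 0.98), and Ssr4 was also not called with TMM factors.

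Of the chaperones 6 of 9 rose in KI spleen. Creld2 had 2936 and 2574 in KI spleen, 1249 in Tg and 920 and 1347 in Wt spleen (1.30 ± 0.17, limma adjusted p = 0.00131), and Sdf2l1 had 1883 and 2015 in KI, 840 in Tg and 663 and 1089 in Wt spleen (1.20 ± 0.20, adjusted p = 0.00476). Hyou1 rose by 0.78 ± 0.14 (adjusted p = 0.00595), and Hsp90b1 had 16417 and 13165 in KI, 9100 in Tg and 7133 and 9214 in Wt spleen (0.86 ± 0.17, adjusted p = 0.00756). Manf (0.75) and Dnajb11 (0.36) were also called, and Dnajc3 (0.39) was not. Against these, the BiP gene and its cochaperone Dnajb9 lay below Wt. Dnajb9 had 1334 and 1103 in KI spleen, 4055 in Tg and 4333 and 4018 in Wt spleen (-1.78 ± 0.17, adjusted p = 0.000245). Hspa5 had 16696 and 15915 in KI spleen, 22362 in Tg and 17781 and 19571 in Wt spleen (-0.19 ± 0.13, adjusted p = 0.323), a difference that did not pass the test and was 0.02 after quantile normalisation. The ratio of Dnajb9 to Hspa5 signal was 0.0693 to 0.0799 in KI spleen and 0.205 to 0.244 in Wt spleen; in LN it was 0.0962 to 0.105 in KI and 0.178 to 0.220 in Wt. Hyou1 (0.63 to 0.93) and Hsp90b1 (0.67 to 1.04) were not called without the spleen of Wt mouse 1, nor Hsp90b1 without that of KI mouse 5; Manf (0.47 to 1.03) and Dnajb11 (0.29 to 0.44) lost their calls without the spleen of KI mouse 5, KI mouse 6 or Wt mouse 1, and Dnajb11 also without that of Wt mouse 2 or either KI LN library.

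The lectin chaperones were called for 0 of 2 in spleen as in LN, Canx at 0.24 and Calr at 0.19. Of the disulfide isomerases Txndc5 had 8786 and 6725 in KI spleen, 3724 in Tg and 4102 and 3912 in Wt spleen (0.94 ± 0.15, limma adjusted p = 0.00308). Pdia6 rose by 0.70 ± 0.11 (adjusted p = 0.00341) and Pdia4 by 0.49 ± 0.15 (adjusted p = 0.0468), while Pdia3 (-0.00 ± 0.15) and P4hb (-0.14 ± 0.11) were not called. The 3 isomerases called were those called in LN, and the Pdia4 call was lost without any 1 of the 8 KI and Wt libraries (0.42 to 0.56).

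Of the ERAD genes 5 of 9 rose in KI spleen. Derl3 had 2222 and 1792 in KI spleen, 441 in Tg and 395 and 485 in Wt spleen (2.19 ± 0.20, limma adjusted p = 0.000234). Sel1l had 4761 and 4318 in KI, 1963 in Tg and 1834 and 1895 in Wt spleen (1.28 ± 0.13, adjusted p = 0.000294), and Syvn1 had 6243 and 6559 in KI, 3604 in Tg and 3482 and 3343 in Wt spleen (0.91 ± 0.13, adjusted p = 0.00177). The ligase complex and Derl3 therefore separated KI from the other spleen libraries with no overlap. Derl2 (0.67 ± 0.13, adjusted p = 0.00675) and Edem2 (0.79 ± 0.15, adjusted p = 0.00724) were called, while Derl1 (-0.10), Edem1 (0.33), Edem3 (0.42) and Herpud1 (0.49) were not. The ratio of Derl3 to Derl1 signal was 0.749 to 0.952 in KI and 0.148 to 0.200 in Wt spleen. Derl2 was not called without the spleen of KI mouse 6 or Wt mouse 1 (0.61 to 0.74), nor Edem2 without that of KI mouse 5 or Wt mouse 1 (0.58 to 0.99).

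Ern1 had 1588 and 1406 in KI spleen, 478 in Tg and 466 and 439 in Wt spleen (1.72 ± 0.15, limma adjusted p = 0.000207). Xbp1 had 9518 and 6233 in KI, 3592 in Tg and 2712 and 3713 in Wt spleen (1.28 ± 0.23, adjusted p = 0.00790). Atf6 had 2018 and 1735 in KI, 1805 in Tg and 1750 and 1579 in Wt spleen, which overlap (0.17 ± 0.16, adjusted p = 0.485). For Ern1 and Xbp1 the KI libraries thus lay above Wt in both tissues with no overlap, and for Atf6 in LN. The transport genes Lman1 (0.87 ± 0.14, adjusted p = 0.00350) and Sec24d (0.84 ± 0.17, adjusted p = 0.00802) rose, and Kdelr2 (0.49), Kdelr1 (0.31) and Sec23b (0.28) were not called. Xbp1 was not called without the spleen of Wt mouse 1 (0.97 to 1.58), nor in a fit of the KI and Wt spleen libraries alone, nor Sec24d without the spleen of KI mouse 5 or Wt mouse 1 (0.74 to 0.94).

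The KI difference was larger in LN than in spleen for 49 of the 56 genes in point estimate, against 5279 of all 10885 genes. Tested as the LN difference minus the spleen difference, 4 genes passed and 0 were lower, where 0.763% of all genes were higher and 0.193% lower: Derl3 (1.75 ± 0.29, limma adjusted p = 0.0297), Dnajb9 (1.38 ± 0.24, adjusted p = 0.0332), Txndc5 (1.15 ± 0.21, adjusted p = 0.0360) and Ern1 (1.13 ± 0.22, adjusted p = 0.0453). For Derl3, Txndc5 and Ern1 this was a larger increase in LN; for Dnajb9 it was a larger decrease in spleen. Hspa5 (0.77 ± 0.18, adjusted p = 0.0729) and Atf6 (0.86, adjusted p = 0.0880) did not pass. With the mouse as a fixed term, which uses the pairing of LN and spleen within a mouse, 9 genes passed: these 4 with Creld2, Hsp90b1, Hspa5, Pdia4 and Xbp1. Calls over all genes grew as well with that term, to 485 higher and 111 lower, against 83 and 21 without it. The fit with that term leaves fewer residual degrees of freedom, so its spread per gene is less well estimated. Without the LN of KI mouse 5 or 6, the spleen of KI mouse 6, or the spleen of Wt mouse 1 or 2, 0 genes passed, and 2 did without the LN of Wt mouse 1; the estimates were then 1.42 to 2.08 for Derl3, 1.09 to 1.67 for Dnajb9, 0.96 to 1.35 for Txndc5 and 1.01 to 1.24 for Ern1.

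**Figure D4:**
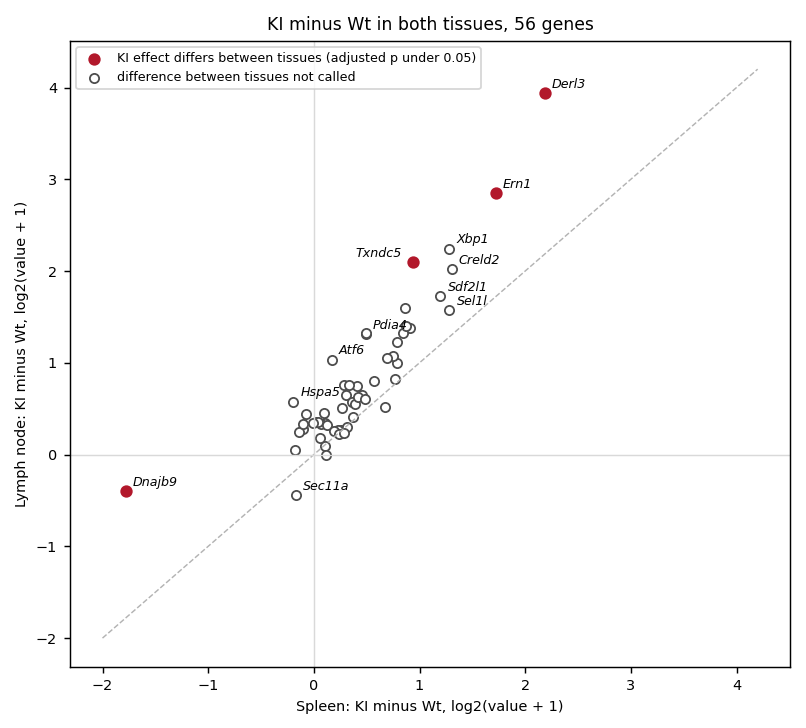
The KI minus Wt difference of each of the 56 genes in LN (vertical) against that in spleen (horizontal), in log2(value + 1), with a dashed line of equality. The 4 filled red genes, Derl3, Ern1, Txndc5 and Dnajb9, differ between the tissues at an adjusted p under 0.05, and 49 of the 56 points lie above the line.

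The tissues themselves differed in Wt mice. In Wt LN 9 of the 56 genes were lower than in Wt spleen and 1 was higher, where 6.29% of all genes were lower and 3.09% higher; 45 of 56 point estimates were below 0. Derl3 was at -1.32, Txndc5 at -1.02, Atf6 at -0.96, Pdia4 at -0.88, Herpud1 at -0.67, Ern1 at -0.65, Dnajb9 at -0.63, Hspa5 at -0.46 and Sec11c at -0.41, and Sec11a, the other catalytic subunit, was higher in LN at 0.43. In KI mice these gaps were smaller or turned: 1 gene, Dnajb9, was higher in LN (0.75 ± 0.17, limma adjusted p = 0.0203), 0 were lower, where 4.78% of all genes were higher and 4.49% lower, and 8 of 56 point estimates were below 0. Derl3 was at 0.43 and Ern1 at 0.48 in KI, neither called. Of 13 plasma cell markers, 6 were lower in LN than in spleen of Wt mice and 1 was higher in LN of KI mice. Germinal centre markers were called for 0 of 9 in Wt and higher in LN for 6 of 9 in KI, and pan B cell markers were lower in LN for 7 of 10 in Wt and 6 of 10 in KI. The part of these markers in the tissue differences was not tested. With the mouse as a fixed term, 1021 of all genes were lower in LN than in spleen of Wt mice, against 685 without that term. The Wt count of 9 was 4 without the LN of Wt mouse 1 or the spleen of Wt mouse 2, and 14 with the mouse as a fixed term, which added Creld2, Hsp90b1, P4hb, Sdf2l1 and Xbp1. The call of Dnajb9 in KI was lost without the LN of KI mouse 5 or 6 or the spleen of KI mouse 6 (0.61 to 0.88).

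**Figure D5:**
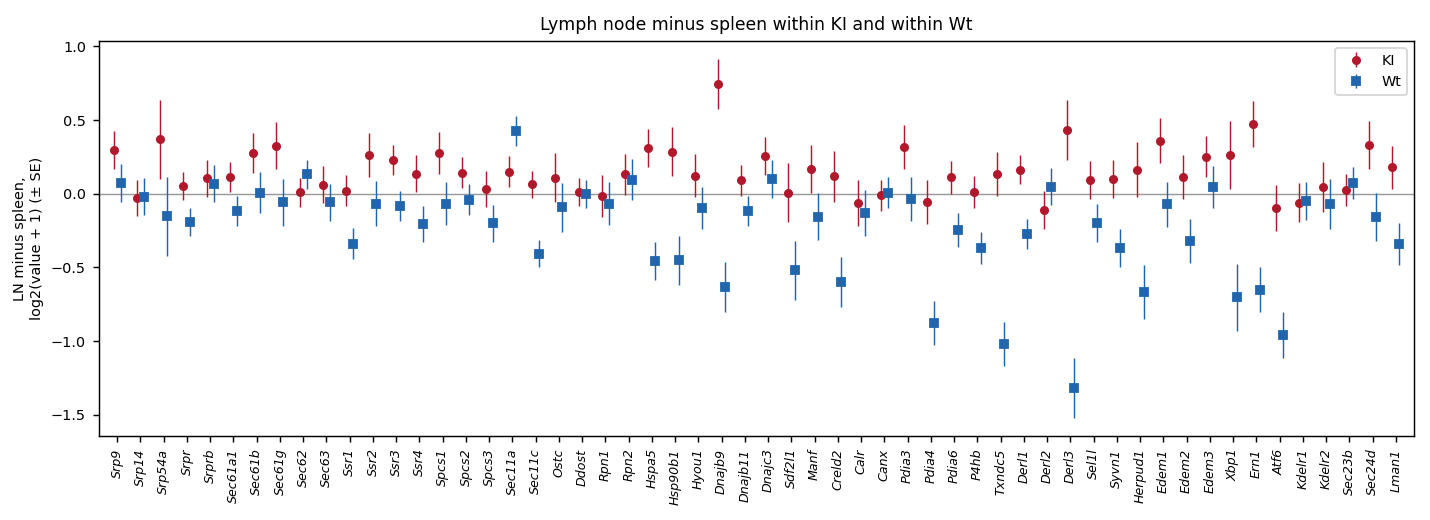
The difference between LN and spleen for each of the 56 genes, in log2(value + 1), in KI and in Wt mice. In Wt mice 45 of 56 values lie below 0, down to -1.32 for Derl3, and in KI mice 8 of 56 do.

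In Tg mice none of the 56 genes passed the test in either tissue, as no gene of the whole table did (0.0% higher and 0.0% lower in LN and in spleen). All 56 genes lay between -0.5 and 0.5 in both Tg comparisons, with a median of 0.01 in LN and 0.03 in spleen, and at an unadjusted p under 0.05 there were 2 in LN and 0 in spleen, against 532 and 164 of all genes. In LN, edgeR and DESeq2 on the recovered reads also called 0 of the 56; over all genes edgeR called 0 and DESeq2 27 higher and 1 lower. The smallest p in LN belonged to Sec62, which had 1531 and 1569 in Tg LN and 2030 and 1871 in Wt LN (-0.33 ± 0.10, limma adjusted p = 0.874), and to Sec11c (0.24 ± 0.09, adjusted p = 0.960). In spleen it was P4hb, with 5870 in Tg and 4720 and 4984 in Wt (0.28 ± 0.13, adjusted p = 0.9998). Tg and Wt LN libraries did not overlap for 3 genes that were higher and 5 that were lower, 12.7% and 14.6% of all genes being so.

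Set against Tg instead of Wt, the KI tissues gave a like picture; both comparisons use the same KI libraries. In LN 41 genes were higher and 2, Dnajb9 and Sec11a, lower in KI than in Tg, where 14.5% of all genes were higher and 12.2% lower, with a median of 0.58 over these genes. In spleen 18 were higher and 1, Dnajb9, lower, where 3.35% and 4.35% of all genes were, with a median of 0.36. Dnajb9 was at -0.67 in LN (limma adjusted p = 0.0162) and -1.74 in spleen (adjusted p = 0.00197), and Derl3 at 3.62 and 2.18. Canx (0.40), Pdia3 (0.51), Sec62 (0.33) and Kdelr1 (0.41), not called against Wt, were called against Tg in LN. The LN counts ran from 29 to 40 higher and 0 to 2 lower without 1 library; 29 and 0 were reached without the LN of KI mouse 5 or 6. The spleen count of 18 was 4 without the spleen of KI mouse 5 and 8 without that of KI mouse 6.

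Beyond the 56 genes, a wider list of the same pathway held 81 genes, 76 of them in the table. In KI LN 27 rose and 2 fell, with a median of 0.22; in KI spleen 13 rose and 3 fell, with a median of 0.18; in Tg tissues 0 passed. Over all genes 13.8% rose and 12.2% fell in KI LN, and 7.63% and 9.21% in KI spleen. By smallest p in LN these were Txndc11, a thioredoxin-domain partner of Edem proteins, with 4077 and 3994 in KI and 1348 and 1407 in Wt LN (1.55 ± 0.11, limma adjusted p = 1.82e-05), the ER-bound transcription factor Creb3l2 (2.34 ± 0.18), Tram2 (2.03 ± 0.19), the CREB3 regulator Crebrf (1.20 ± 0.12) and the prolyl isomerase Fkbp2 (1.26 ± 0.13). In spleen the same 5 genes were at 0.79, 1.34, 1.05, 0.82 and 0.81 in that order, all called. Qsox1, a sulfhydryl oxidase (-0.72 in LN and -0.69 in spleen), and Tusc3, an oligosaccharyltransferase subunit (-0.52 and -0.69), fell in both tissues, and Selenok (-0.58) fell in spleen. Perk, the remaining sensor (Eif2ak3), had 3431 and 2881 in KI LN, 2276 and 2082 in Tg LN and 1287 and 1679 in Wt LN (1.10 ± 0.15, limma adjusted p = 0.000525). In spleen it had 2801 and 2867 in KI, 2234 in Tg and 2254 and 1879 in Wt and was not called (0.46 ± 0.15, adjusted p = 0.0547).

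The 2 mice of a group were closer for these genes than over all genes, a set that was not matched to them for signal level. The SD over the 56 genes of the log2 difference between both libraries was 0.153 in KI LN, 0.224 in Tg LN, 0.212 in Wt LN, 0.170 in KI spleen and 0.202 in Wt spleen; over all genes it was between 0.449 and 0.918. The gene that differed most between replicates was Sdf2l1 in Wt spleen (0.71), followed by Derl3 in Wt LN (0.67) and Xbp1 in KI spleen (0.61). In KI LN the largest gap was 0.42, for Sec24d.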

How the data were processed

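The authors deposited a normalised signal for 10885 genes in 11 libraries; that it is a read count divided by 1 factor per library was read from the values, all of which are, to within 0.05 reads, whole multiples of a step that is fixed in each library. Per the submitters' processing notes, FastQC 0.11.5, STAR 2.5, featureCounts, Subread 1.4.6, DESeq2 1.26.0 and build GRCm39 were used, with no role or order; the annotation, the strandedness of counting and any gene filter are not given in the sources used here. Every gene reached at least 109.3 in 1 library.

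Here limma 3.58.1 (R 4.3.3) with trend and robust moderation was fitted to log2(value + 1) as 6 group means over 11 libraries (5 residual degrees of freedom), with Benjamini-Hochberg adjustment over all genes, and the single Tg spleen library was taken to be as variable as the rest. A count test had been planned. Since the table holds normalised values, limma was used. The count tests edgeR 4.0.16 and DESeq2 1.42.0 were run on reads recovered from the deposited signal, in LN only. The script was tested on simulated data. Labels tie the LN and spleen of 1 mouse by number; deviations from the group mean correlated between them over genes at 0.403 in Wt and 0.900 in KI. The mouse was an alternative term, random (consensus correlation 0.0168) or fixed. The fixed term leaves fewer residual degrees of freedom than the fit of 6 group means. Other alternatives were pseudocounts of 0.1 and 5, a mean value of at least 200, rescaling without immunoglobulin and haemoglobin genes, quantile normalisation, TMM factors, fits to the compared groups alone and leaving out each library.

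The 56 genes and all lists were chosen with earlier results of these data known. Per sub-function and comparison the text names up to 3 called genes with the smallest p, those called against the majority, up to 2 uncalled genes with the largest p, and fixed paralogues and sensors; other members are given as values. Motifs were searched in RefSeq promoters (GRCm38.p6), a build other than that of the reads. Counts do not separate near-identical copies.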

Additional observations from a re-analysis of the deposited data

Results flagged for a closer look

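The KI minus Wt difference was tested between tissues, and 4 of the 56 genes passed. Derl3 differed by 1.75 on the log2 scale, Dnajb9 by 1.38, Txndc5 by 1.15 and Ern1 by 1.13, each as the LN difference minus the spleen difference (limma, adjusted p = 0.0297, 0.0332, 0.0360 and 0.0453). For Derl3 the tissue differences were 3.94 in LN and 2.19 in spleen, for Txndc5 2.09 and 0.94, for Ern1 2.85 and 1.72, and for Dnajb9 -0.40 and -1.78. By the same test, 4 of 13 plasma cell markers and 1 of 9 germinal centre markers also showed a larger KI difference in LN, 0 of both lists a lower one, and 5 of 10 macrophage markers a lower one; their part in the 4 genes' values was not tested.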

How the results depend on the processing

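No called difference of the 56 genes changed sign under any alternative run. Uncalled differences were followed only for KI against Wt, and those near 0 were left out. Among those followed, Hspa5 in KI against Wt spleen changed sign, at 0.022 after quantile normalisation, against -0.19. The random mouse term (replicate block) left the KI against Wt calls at 37 higher and 1 lower in LN and 22 higher and 1 lower in spleen. Its consensus correlation was 0.0168, so that fit was close to the fit without it and does not test the pairing. The fixed mouse block gave 9 genes with a larger KI difference in LN (over all genes 485 higher and 111 lower, against 83 and 21). It gave 14 lower in LN than spleen of Wt mice (over all genes 1021 lower, against 685). In KI mice it gave 2 higher in LN (over all genes 795 higher, against 520). Fits to the compared groups alone also gave 2 in that KI comparison (over all genes 623 higher). For KI against Tg LN, 1 gene was lower, not 2, after rescaling without immunoglobulin and haemoglobin genes, in the fit of the compared groups alone, and with edgeR (33 higher) and DESeq2 (35 higher). Against Wt LN, edgeR called 33 higher and DESeq2 37, each with 1 lower. Over all 10885 genes edgeR called 1228 higher and 931 lower against Wt LN, and DESeq2 1436 and 1198. Against Tg LN they called 1153 and 934 (edgeR) and 1395 and 1253 (DESeq2).

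Without 1 library at a time the counts ranged over 27 to 39 higher and 0 to 2 lower (KI against Wt LN), 9 to 28 higher and 1 lower (KI against Wt spleen), 29 to 40 higher and 0 to 2 lower (KI against Tg LN), 4 to 18 higher and 1 to 2 lower (KI against Tg spleen), 0 to 5 higher (the difference between tissues), 0 to 1 higher and 4 to 9 lower (LN against spleen in Wt) and 0 to 2 higher (in KI). In LN 26 of 38 KI against Wt calls held whichever library was left out, and in spleen 10 of 23. Calls over all genes shifted with scaling: KI against Tg gave 2046 higher and 1032 lower in LN and 776 and 438 in spleen without immunoglobulin and haemoglobin genes, against 1580 and 1330 and 365 and 474; quantile normalisation gave 654 and 528 in that spleen comparison and 446 higher and 559 lower for LN against spleen in Wt, against 336 and 685.

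With 2 mice a group, and 1 Tg spleen, a p above the threshold does not show that values did not differ. The fit of compared groups alone was not run for comparisons with the Tg spleen, and count tests were not run on spleen. The cause of these shifts was not tested.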
